A study of Mus musculus with 19 samples.

Results

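The 9 genes Slc22a6, Slc13a4, Slc6a20a, Gjb2, Fmod, Dcn, Lum, Ogn and Aldh1a2, known as markers of leptomeningeal fibroblasts, were followed in RNA sequencing libraries of the mouse hippocampal CA1 region, 19 in all. They were chosen by name from 48709 genes in the count tables, by a choice made with earlier results of these libraries in view. All 9 passed the filter on low counts (5 reads or more in 50% or more of the libraries), as did 19286 genes in all. The study asked what inhibitors of 3 microRNAs do to the transcriptome of old mice.

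All mice were male C57B/6J wild-type animals bought from a commercial breeder and received lipid nanoparticles by injection into the dorsal hippocampus on both sides. The 6 young mice (3 months of age) and the 6 old control mice (16.5 months) were given control oligonucleotides. The 7 old anti-miR-mix mice (16.5 months) were given inhibitors against miR-146a-5p, against miR-148a-3p and against miR-181a-5p. The controls thus shared the surgery and the particles, and the age comparison was made between injected animals. The study describes microdissection and snap freezing of CA1 and other regions for mice of 3 and 16.5 months. For the injected mice it names dorsal hippocampal tissue as the source of the RNA. How much tissue around CA1 or adjoining membrane a piece carried is not given in the sources used here.

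The leptomeninges, the pia and arachnoid, cover the brain surface, and the pia follows the hippocampal fissure next to CA1. Their fibroblasts lay down collagens and small leucine-rich proteoglycans, which bind collagen fibrils and set their spacing. They carry solutes between cerebrospinal fluid and brain through transporters, are coupled by gap junctions, and make retinoic acid, a diffusible signal derived from vitamin A. Neurons and glia make up most of the tissue, so transcripts of such fibroblasts are a small part of a CA1 library. In bulk tissue, fewer cells of a type and less RNA per cell cannot be told apart.

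The microRNAs blocked by the mixture are shown because pairing of their seed, bases 2 to 8 (capitals), to the 3′UTR of a messenger RNA is the usual basis of their targeting. RefSeq's mature sequences (GRCm38.p6) are these:
miR-146a-5p: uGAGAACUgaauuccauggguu
miR-148a-3p: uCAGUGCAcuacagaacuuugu
miR-181a-5p: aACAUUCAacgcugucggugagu
The letters complementary to each seed were looked for in the 3′UTR of each of the 9 genes (the annotated 3′UTRs of GENCODE M21, GRCm38). Slc22a6 and Slc6a20a each held 1 match to miR-146a-5p (AGTTCTC), as 11.2% of 21020 genes with a 3′UTR did. Slc13a4 held 1 match to miR-148a-3p (TGCACTG, present in 12.7% of genes) and Slc6a20a 1 match to miR-181a-5p (TGAATGT, present in 16.4%). The matches, in capitals, with 10 bases on each side read as follows:
Slc22a6 with miR-146a-5p: gtcctggtagAGTTCTCctcctgctca
Slc6a20a with miR-146a-5p: aggtcacataAGTTCTCatgacttcaa
Slc13a4 with miR-148a-3p: agcttctctaTGCACTGtcattaacag
Slc6a20a with miR-181a-5p: atgcaccatgTGAATGTctttattctt
In Gjb2, Fmod, Dcn, Lum, Ogn and Aldh1a2 none of these letters was found. A match is a description of the sequence and not a measured site.

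The promoters of Slc13a4, Slc22a6 and Ogn are shown because they held the motif GGAATG, a choice made after the matches were seen, and that of Fmod because it had the widest range of levels and held none of the motifs. The 250 bases upstream of each start (RefSeq, GRCm38.p6, on the strand of the gene) were searched on both strands for the TATA box letters TATAAA, the CCAAT box, the GC box letters GGGCGG, the TEAD factor motif GGAATG, the forkhead motif TGTTTA and the AP-1 motif TGACTCA, and matches are in capitals. In Slc22a6 a GGAATG match on the opposite strand shares its end base with a CCAAT match, which in turn overlaps a CCAAT match on the opposite strand, and in Ogn the 2 TATAAA matches overlap.
Slc13a4, chr6:35308127-35308376, minus strand: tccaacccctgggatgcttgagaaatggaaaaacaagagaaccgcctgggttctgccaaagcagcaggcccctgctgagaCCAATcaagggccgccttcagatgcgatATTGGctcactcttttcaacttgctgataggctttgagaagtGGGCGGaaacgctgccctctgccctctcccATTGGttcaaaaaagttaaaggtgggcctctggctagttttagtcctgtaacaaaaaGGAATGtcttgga
Slc22a6, chr19:8617746-8617995, plus strand: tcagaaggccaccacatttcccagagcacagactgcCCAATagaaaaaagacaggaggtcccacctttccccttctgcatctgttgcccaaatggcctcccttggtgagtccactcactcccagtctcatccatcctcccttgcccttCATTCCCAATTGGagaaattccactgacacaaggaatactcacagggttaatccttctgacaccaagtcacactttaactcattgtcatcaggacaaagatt
Ogn, chr13:49607765-49608014, plus strand: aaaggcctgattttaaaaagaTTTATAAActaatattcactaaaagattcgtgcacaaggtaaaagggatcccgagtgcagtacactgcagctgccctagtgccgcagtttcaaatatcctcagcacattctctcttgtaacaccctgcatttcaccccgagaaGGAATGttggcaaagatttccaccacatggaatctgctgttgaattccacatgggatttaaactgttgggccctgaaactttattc
Fmod, chr1:134037004-134037253, plus strand: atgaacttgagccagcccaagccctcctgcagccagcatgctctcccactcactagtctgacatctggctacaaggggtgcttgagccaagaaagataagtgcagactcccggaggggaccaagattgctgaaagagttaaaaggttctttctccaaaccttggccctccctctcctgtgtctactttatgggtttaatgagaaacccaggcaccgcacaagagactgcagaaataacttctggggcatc
Sequences were given for 7 of the 9 genes, without Dcn and Lum. Of the 7, GGAATG was in Slc13a4, Slc22a6 and Ogn, and in 12.6% of 32851 promoters of the same length. CCAAT was in Slc13a4, Slc22a6 and Aldh1a2 (33.8% of promoters), GGGCGG in Slc13a4, Slc6a20a and Gjb2 (32.7%) and TATAAA in Ogn (12.4%). TGTTTA (12.0%) and TGACTCA (4.46%) were in none of the 7, and Fmod held none of the 6 motifs. No motif was shared by all 7 genes.

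Libraries held between 26653511 and 38908947 reads assigned to genes, so even the lowest count of any of the 9 genes in any library (36 reads, Ogn) was above the 3 reads that a count of 0 allows. Values are CPM, reads of a gene over all reads of the library on a common scale, adjusted between libraries by the TMM method, and log2 CPM. The deposited log2 table carried a whole number from 1 to 4 per library, termed processing group here. What the number stands for is not described in the sources used here. It was unevenly spread over the groups (0 old control libraries in group 3). Old control replicates 5 and 6 were more alike than other pairs (chi-square per degree of freedom of 2.18, next lowest 6.10), which was still above counting noise, and both were kept. The labels list them as separate libraries, and whether they came from separate mice was not settled by the counts. Counted as 1 library, they lowered the calls over all genes from 514 to 313 with age and from 129 to 33 with treatment, and 0 of the 9 genes were called. The study housed its animals singly. The labels do not describe separate dissection, and p-values measure the spread between these libraries.

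Per kilobase of exon, Dcn was by far the most abundant of the 9 genes, with a mean of 13 CPM per kb over the 19 libraries. Gjb2 followed with 2.64 CPM per kb, then Fmod with 2.44, Slc6a20a with 2.04, Aldh1a2 with 2.00, Ogn with 1.86, Slc13a4 with 1.51, Lum with 1.15 and Slc22a6 with 1.05. Below Dcn, neighbours in this order lay closer together on the log2 scale than the smallest within-group standard deviation (SD) of the 9 genes, that of Lum (0.47). This SD is not the spread of a difference between 2 genes of the same libraries. The order below Dcn was not tested and is a description of the means.

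The transporter genes came first among those that varied. Slc22a6 encodes the organic anion transporter OAT1 (ENSMUSG00000024650, chromosome 19, 8618039 to 8628299, plus strand). Its CPM had a lowest, median and highest value of 1.72, 5.57 and 11.3 in young, 1.49, 2.82 and 4.30 in old control, and 1.47, 2.37 and 9.87 in old anti-miR-mix libraries. The groups overlapped, and the 4 highest values were those of young replicates 6, 3 and 1 and old anti-miR-mix replicate 6. Slc13a4, a sodium-coupled sulfate transporter (ENSMUSG00000029843, chromosome 6, 35267957 to 35308131, minus strand), ranged from 1.85 over a median of 9.14 to 21.1 CPM in young, from 3.08 over 4.31 to 5.35 in old control, and from 2.32 over 3.63 to 17.5 in old anti-miR-mix libraries. The lowest and the highest of all 19 libraries were both young. Slc6a20a, a transporter of proline and other imino acids (ENSMUSG00000036814, chromosome 9, 123634770 to 123678885, minus strand), ranged from 5.51 over 10.1 to 18.6 CPM in young, from 5.57 over 6.22 to 7.79 in old control, and from 4.94 over 5.99 to 12.8 in old anti-miR-mix libraries. It overlaps Ccr9 on the opposite strand and lies next to its paralog Slc6a20b, with means of 10.6 and 2.84 reads per library, so reads exchanged with either gene could be few beside its own mean of 262.9.

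Gjb2 encodes connexin 26, a gap junction subunit (ENSMUSG00000046352, chromosome 14, 57098600 to 57104702, minus strand). It ranged from 4.75 over a median of 6.85 to 13.8 CPM in young, from 4.22 over 4.91 to 7.33 in old control, and from 3.97 over 4.88 to 10.2 in old anti-miR-mix libraries. Its spread was among the smaller of the 9 genes, with a 3.48-fold distance from the lowest to the highest library.

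The small leucine-rich proteoglycans fell into different patterns. Fmod, fibromodulin, which binds collagen fibrils (ENSMUSG00000041559, chromosome 1, 134037254 to 134048277, plus strand), ranged from 2.31 over 12.0 to 23.4 CPM in young, from 1.81 over 4.81 to 6.93 in old control, and from 2.26 over 4.13 to 23.7 in old anti-miR-mix libraries, a 13.1-fold distance over the 19 libraries. Ogn, osteoglycin or mimecan (ENSMUSG00000021390, chromosome 13, 49608046 to 49624501, plus strand), ranged from 1.87 over 7.27 to 12.8 CPM in young, from 1.28 over 2.32 to 4.82 in old control, and from 1.65 over 2.90 to 15.0 in old anti-miR-mix libraries. Ogn lies within Cenpp, a centromere protein gene on the opposite strand with a mean of 51.0 reads against 150.6 for Ogn. The strand setting of the counting was not given in the sources used here, and reads of overlapping genes can be exchanged.

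Lum, lumican, another binder of collagen fibrils (ENSMUSG00000036446, chromosome 10, 97565128 to 97572703, plus strand), ranged from 2.00 over 2.43 to 5.26 CPM in young, from 1.58 over 2.32 to 3.10 in old control, and from 2.16 over 2.49 to 5.09 in old anti-miR-mix libraries. Only young replicate 6 and old anti-miR-mix replicates 4 and 6 stood above 4 CPM, with 5.26, 5.09 and 4.79, and young replicates 1 and 3 did not (2.52 and 2.34). Dcn, decorin, lies next to Lum on the same strand (ENSMUSG00000019929, chromosome 10, 97479609 to 97518143). It ranged from 18.8 over 63.5 to 113.3 CPM in young, from 68.4 over 92.8 to 111.4 in old control, and from 49.9 over 70.7 to 94.7 in old anti-miR-mix libraries. Its 3 lowest values were those of young replicate 4 (18.8), young replicate 3 (39.8) and old anti-miR-mix replicate 2 (49.9). The highest Dcn value was that of young replicate 6 (113.3), the library that was also highest for Lum. Dcn is also expressed by some hippocampal neurons and by cells of the vessel wall, so it marks leptomeningeal fibroblasts less cleanly than the others in this tissue.

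Aldh1a2 encodes a retinaldehyde dehydrogenase that makes retinoic acid (ENSMUSG00000013584, chromosome 9, 71215789 to 71296243, plus strand, overlapping the minus-strand transcript Gm48124). It ranged from 2.26 over 4.93 to 12.2 CPM in young, from 2.26 over 3.17 to 4.53 in old control, and from 2.06 over 2.30 to 10.7 in old anti-miR-mix libraries. Old anti-miR-mix libraries split widely for this gene, with replicates 1, 3, 5 and 7 between 2.06 and 2.30 and replicates 2, 4 and 6 between 5.80 and 10.7. Slc22a6, Slc13a4, Slc6a20a, Gjb2, Fmod and Ogn split between the same replicates without overlap. For Slc13a4 the highest of replicates 1, 3, 5 and 7 was 3.63 CPM and the lowest of replicates 2, 4 and 6 was 7.25 CPM.

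**Figure D1:**
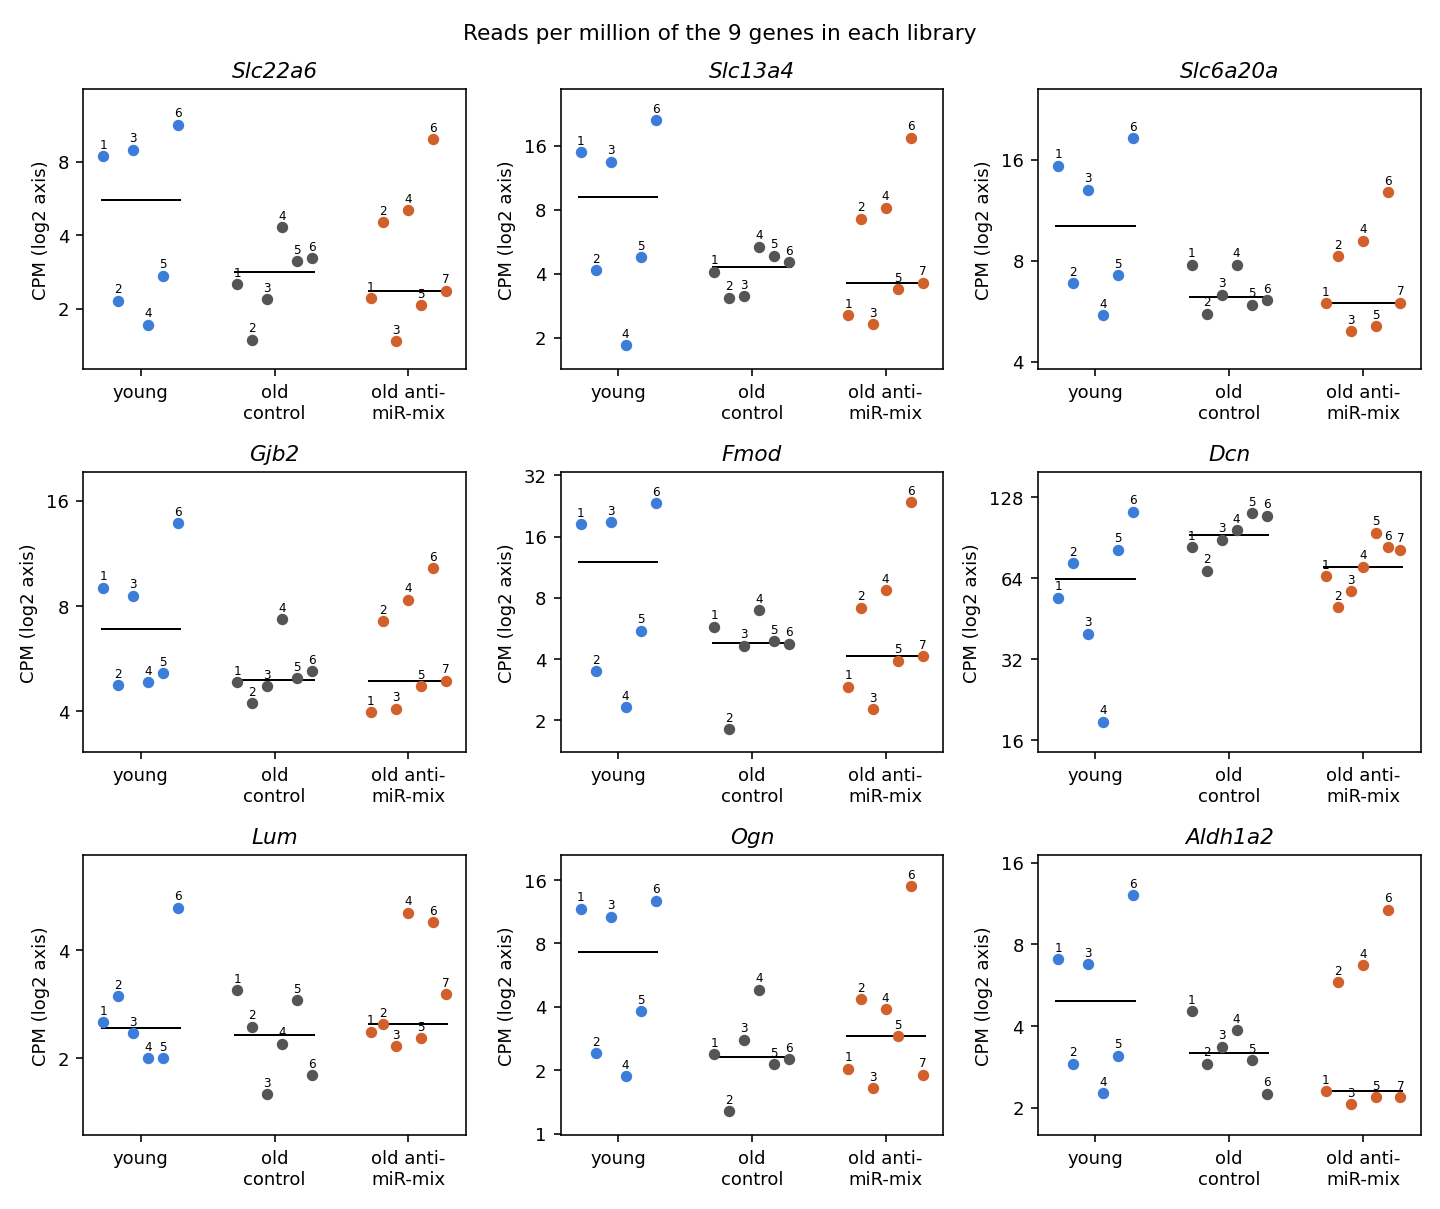
CPM of each of the 9 genes (one panel each, log2 axis) in each library of the 3 groups. Points are libraries with their replicate number and black lines are group medians. In 7 panels the same libraries, young replicates 1, 3 and 6 and old anti-miR-mix replicate 6, lie highest. In Dcn and Lum young replicate 6 is highest as well, but young replicates 1 and 3 are not among the highest.

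The spread between libraries of the same group was large for all 9 genes. The SD of log2 CPM within groups lay between 0.47 (Lum) and 1.12 (Fmod), where the median over all tested genes was 0.15, and each of the 9 genes lay above the 90th percentile of all genes. The distance from the lowest to the highest library was 3.32-fold for Lum and 13.1-fold for Fmod, against a median of 1.5-fold over all genes. Differences between the 3 groups held between 8.24% (Aldh1a2) and 24.2% (Dcn) of each gene's spread, where the median gene had 14.7%. Most of the variation of these genes thus lay between libraries of the same group.

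In 7 of the genes, all but Dcn and Lum, the libraries were high or low together. Young replicates 1, 3 and 6 and old anti-miR-mix replicate 6 were the 4 highest libraries in each of the 7. Fmod, for example, had 18.4, 18.9 and 23.4 CPM in these young libraries and 23.7 CPM in old anti-miR-mix replicate 6, and at most 8.73 CPM in the other 15 libraries. Ogn had 11.7, 10.7, 12.8 and 15.0 CPM there and at most 4.82 CPM elsewhere.

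The mean of the 7 genes, as log2 CPM minus each gene's mean over the 19 libraries, showed the same in a single value. It was 1.66 in young replicate 6, 1.47 in old anti-miR-mix replicate 6, 1.22 in young replicate 1 and 1.15 in young replicate 3. It was lowest in old anti-miR-mix replicate 3 (-0.98), old control replicate 2 (-0.91) and young replicate 4 (-0.89). Both ends thus held libraries of more than 1 group. The range was -0.89 to 1.66 in young (SD 1.05, n = 6), -0.91 to 0.19 in old control (SD 0.36, n = 6) and -0.98 to 1.47 in the treated group (SD 0.87, n = 7). The old control group held no library above 0.5, the young group 3 and the old anti-miR-mix group 1.

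**Figure D2:**
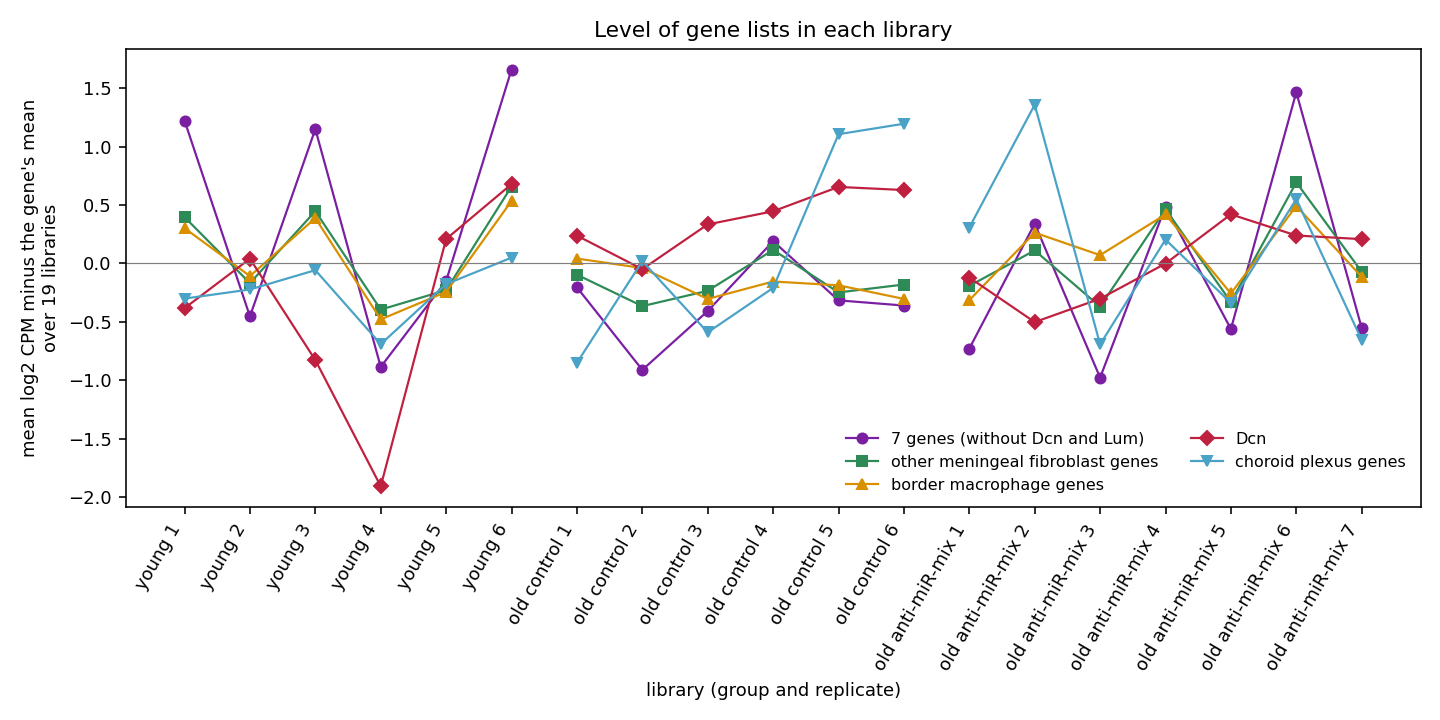
Mean log2 CPM minus each gene's mean over 19 libraries (y axis) in each library (x axis, lines join libraries of a group and carry no order) for the 7 genes, for Dcn and for 3 lists of other genes. The 7 genes reach 1.66 in young replicate 6 and -0.98 in old anti-miR-mix replicate 3, other meningeal fibroblast and border macrophage genes rise and fall in the same libraries by less, Dcn is lowest in young replicate 4 (-1.91), and choroid plexus genes are highest in old anti-miR-mix replicate 2 and old control replicates 5 and 6.

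To separate these swings from group differences, group means were subtracted and the remainders were correlated over the 19 libraries. The points share their libraries, so any difference in composition between libraries enters all pairs, and the values are descriptions. Among the 7 genes the 21 pairs had a Pearson r between 0.88 and 0.98 (median 0.94, Spearman's median 0.94). Without the 2 libraries farthest from the median of the pair's first gene they lay between 0.82 and 0.97. Pairs of Lum with the 7 genes had r between 0.46 and 0.71 (median 0.65), and 0.42 as the median without the farthest libraries. Pairs with Dcn had r between 0.26 and 0.45 (median 0.35), a median Spearman's rho of 0.15 and a median r of 0.10 without the farthest libraries. Dcn and Lum, neighbours on chromosome 10, had r = 0.41.

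**Figure D3:**
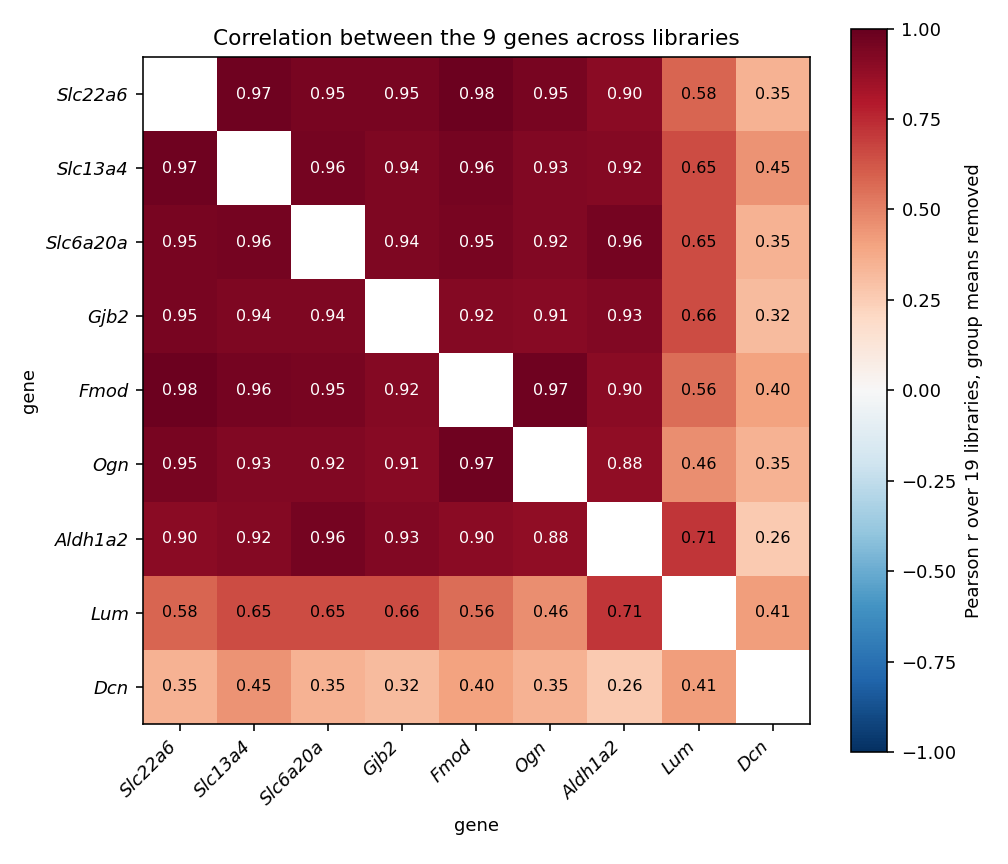
Pearson r between the 9 genes over 19 libraries after group means were removed (colour and printed value, rows and columns are genes). The block of 7 genes lies between 0.88 and 0.98, Lum between 0.46 and 0.71 with them, and Dcn between 0.26 and 0.45 with all others.

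The swings were not limited to the 9 genes. Of 15951 other genes with a mean of at least 20 reads, 187 had r over 0.7 with the mean remainder of the 9 genes and 25 had r over 0.9. The 10 most alike were Slc6a13 (r = 0.96), Bmp7, Olfml2a, Aebp1, Mpzl2, Igf2, Slc13a3, Slc6a12, Alx4 and Mrc2 (r = 0.93). Slc6a13 and Slc6a12 are transporters of GABA and betaine, Slc13a3 carries dicarboxylates, and Igf2 and Bmp7 are secreted growth factors. Slc6a13 ranged from 1.59 to 11.6 CPM, Igf2 from 18.3 to 68.9 CPM and Slc13a3 from 10.1 to 24.9 CPM over the 19 libraries.

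Lists of other genes were set beside these values. Of 38 tested genes of a list of other meningeal fibroblast genes, 22 had r over 0.7 with the mean remainder of the 9 genes, and the mean of the list had r = 0.97 (0.95 without the 2 farthest libraries, n = 19). Fn1, fibronectin, at a mean of 124.8 CPM, had r = 0.87. Ccn3, the most abundant gene of the list at 272.5 CPM, had r = 0.07. The summed level of the list lay between 574.5 and 921.9 CPM in young, 702.2 and 759.1 CPM in old control and 681.7 and 949.0 CPM in old anti-miR-mix libraries. Ccn3, which did not follow the swings, gave the largest part of this sum. Arachnoid barrier genes had r = 0.69 as a list, with 2 of 7 tested genes over 0.7, and Klf5, Dsp and Dpp4, the most abundant of them, had r = 0.27, -0.17 and 0.33. Dsp is counted in the dentate granule list as well.

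Genes of macrophages at the brain's borders moved with the swings as well. Their list mean had r = 0.86 with the 9 genes (n = 19), with 3 of 8 genes over 0.7, and the summed level of the list was between 23.2 and 32.6 CPM in young, 23.1 and 29.3 CPM in old control and 23.8 and 37.2 CPM in old anti-miR-mix libraries. Mrc1, the mannose receptor, ranged from 1.58 to 6.33 CPM and had r = 0.88, F13a1 had r = 0.77, and Stab1, the most abundant of the list, had r = 0.40. None of the 8 genes was at 0 in any library. The part of these cells in the swings was not tested.

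Lists of other tissues that a CA1 piece could carry followed the 9 genes less. The list mean had r = 0.35 for choroid plexus epithelium, 0.42 for mural cells, 0.35 for endothelium, 0.04 for blood, -0.27 for ependyma, 0.32 for thalamus, 0.41 for upper cortical layers, -0.17 for dentate granule cells and -0.47 for CA1 pyramidal cells. Single genes over 0.7 were 2 of 12 in the choroid plexus list, 1 of 11 in the mural list and 1 of 9 in the endothelial list, and 0 in the other 6 lists. Choroid plexus genes, led by Ttr (0.59 to 85.8 CPM), were highest in old anti-miR-mix replicate 2 (1.36 above their mean in log2 CPM), old control replicate 6 (1.20) and old control replicate 5 (1.11). In these 3 libraries the mean of the 7 genes was 0.34, -0.36 and -0.32, so choroid plexus and meningeal genes peaked in different libraries. The summed choroid plexus list lay between 19.2 and 32.4 CPM in young, 23.3 and 93.1 CPM in old control and 20.03 and 114.8 CPM in old anti-miR-mix libraries.

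Dcn followed none of the lists closely. Its highest r with any list was 0.43, with other organic anion and related transporters. Other retinoic acid pathway genes had 0.41 and other small leucine-rich proteoglycans 0.40. The highest Spearman's rho of Dcn was 0.51, with ependymal genes (r = 0.32). The remainder of Dcn had r = 0.32 with other meningeal fibroblast genes (Spearman's rho 0.09), 0.24 with border macrophage genes, 0.32 with mural genes, -0.27 with CA1 pyramidal genes and -0.40 with dentate granule genes (n = 19 each). The library with the lowest Dcn, young replicate 4, had the highest mean of dentate granule genes (1.11), but old anti-miR-mix replicate 5, with the next highest (1.05), had a Dcn level of 0.42 above its mean. By its levels Dcn does not go with the leptomeningeal label in these libraries, and Lum does so only in part.

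Age was examined first, as old control minus young libraries. By edgeR (quasi-likelihood test, 19286 genes), 0 of the 9 genes had a Benjamini-Hochberg adjusted p under 0.05, where 2.67% of all genes tested had. DESeq2 called 0 of them as well, where it called 4.74% of all genes. Fitted differences were lower in old control libraries for 8 genes and higher for Dcn, with a median log2 fold change of -0.78 against 0.01 over all genes. An unadjusted p under 0.05 was found for 6 of the 9 genes in edgeR and 5 in DESeq2. Of all genes, 18.1% had it in edgeR and 17.5% in DESeq2. For 0 of the 9 genes did the values of the groups separate without overlap, as they did for 2.54% of all genes. The genes were picked with these values in view, so none of these counts is independent support of a direction.

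Among the transporters, the log2 difference with age was -1.06 for Slc22a6 (SE 0.47, adjusted p = 0.236 in edgeR), -1.26 for Slc13a4 (SE 0.51, adjusted p = 0.189) and -0.75 for Slc6a20a (SE 0.27, adjusted p = 0.137). The 95% interval of Slc13a4 ran from -2.32 to -0.20, so a wide range of sizes was compatible with these libraries. For Gjb2 it was -0.56 (SE 0.27, adjusted p = 0.272). Ogn had the largest value, -1.46 (SE 0.54, adjusted p = 0.153), and Fmod -1.31 (SE 0.56, adjusted p = 0.215). Lum differed by -0.28 (SE 0.26, adjusted p = 0.629 in edgeR) and Aldh1a2 by -0.78 (SE 0.43, adjusted p = 0.350). Dcn went the other way, with 0.55 (SE 0.27, adjusted p = 0.278).

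The fitted age differences of the 7 genes came with the 3 high young libraries. The other 3 young libraries lay among the old control libraries for each of the 7 genes or below them, as for Slc13a4, with 4.15, 4.79 and 1.85 CPM in young replicates 2, 5 and 4 against 3.08 to 5.35 CPM in old control libraries. Without young replicate 6 alone, the log2 difference with age was -0.76 for Slc22a6, -0.90 for Slc13a4, -0.54 for Slc6a20a, -0.31 for Gjb2, -1.01 for Fmod, -1.21 for Ogn and -0.40 for Aldh1a2. In the same fit Lum had -0.0022 and Dcn 0.80. Without young replicate 4, the library with the lowest Dcn (18.8 CPM), the value of Dcn was 0.37. In both fits 0 of the 9 genes were called with age. Of all genes, 1.99% were called without young replicate 6 and 1.095% without young replicate 4. With processing group as a factor in the fit, all 9 age values kept their direction, from -1.53 for Ogn to 0.55 for Dcn.

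The treatment was examined as old anti-miR-mix minus old control libraries, groups that share the age, the surgery and the particles. For the 9 genes 0 passed the threshold in edgeR, where 0.669% of all genes did, and 0 in DESeq2, where 1.38% did. An unadjusted p under 0.05 was found for 0 of them in either tool (10.5% of all genes in edgeR and 10.3% in DESeq2). In 0 of the 9 genes did the groups not overlap, as they did in 0.498% of all genes. Fitted differences were higher for 8 genes and lower for Dcn, with a median of 0.45 against 0.00 over all genes. They were 0.48 for Slc22a6 (SE 0.47), 0.61 for Slc13a4 (SE 0.50), 0.17 for Slc6a20a (SE 0.26), 0.25 for Gjb2 (SE 0.26), 0.64 for Fmod (SE 0.55), 0.79 for Ogn (SE 0.54), 0.43 for Lum (SE 0.25), 0.45 for Aldh1a2 (SE 0.42) and -0.37 for Dcn (SE 0.26), and adjusted p values in edgeR lay between 0.581 and 0.876. With only these 2 groups in the edgeR fit, 1 of the 9 genes had an unadjusted p under 0.05 (10.4% of all genes). It was Dcn, with -0.38 (SE 0.14, unadjusted p = 0.0131, adjusted p = 0.325). The SD of its log2 CPM was 0.91 in young, 0.26 in old control and 0.33 in old anti-miR-mix libraries.

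A single library carried most of the fitted treatment difference. Without old anti-miR-mix replicate 6, the values were 0.05 for Slc22a6, 0.11 for Slc13a4, -0.01 for Slc6a20a, 0.08 for Gjb2, 0.00 for Fmod, 0.08 for Ogn and 0.08 for Aldh1a2. Lum (0.30) and Dcn (-0.41) moved less. With processing group as a factor, the 9 values kept their direction, from -0.12 for Dcn to 0.86 for Ogn. With all libraries, the 3 genes with a seed match, Slc22a6, Slc13a4 and Slc6a20a, had 0.48, 0.61 and 0.17. The genes without a match lay between -0.37 (Dcn) and 0.79 (Ogn). Whether a match bears on these values was not tested.

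Between old anti-miR-mix and young libraries, 0 of the 9 genes were called in edgeR (6.2% of all genes were) and 0 in DESeq2 (7.88% were). An unadjusted p under 0.05 was found for 1 gene, Slc6a20a, in edgeR (19.6% of all genes). In 0 of the 9 genes were the groups without overlap (2.42% of all genes). This comparison shares its young libraries with the first and its treated libraries with the second. The fitted values were -0.58 for Slc22a6, -0.65 for Slc13a4, -0.57 for Slc6a20a, -0.31 for Gjb2, -0.67 for Fmod, -0.67 for Ogn and -0.32 for Aldh1a2, and 0.18 for Dcn and 0.15 for Lum, with adjusted p values between 0.212 and 0.804. These values turned on single libraries as well. Without young replicate 6 they were -0.29 for Slc22a6, -0.29 for Slc13a4, -0.36 for Slc6a20a, -0.06 for Gjb2, -0.37 for Fmod, -0.42 for Ogn, 0.05 for Aldh1a2, 0.43 for Dcn and 0.43 for Lum. Without old anti-miR-mix replicate 6 they were -1.001 for Slc22a6, -1.14 for Slc13a4, -0.75 for Slc6a20a, -0.47 for Gjb2, -1.31 for Fmod, -1.37 for Ogn and -0.69 for Aldh1a2. In both fits 0 of the 9 genes were called, where 4.64% of all genes were without young replicate 6 and 5.86% without old anti-miR-mix replicate 6.

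The mean log2 CPM of the 38 other meningeal fibroblast genes, none of which is among the 9, was then added to the fit as a covariate of each library, to set group differences apart from the shared swings. The standard errors of the 7 genes fell by a median factor of 2.81 in the age comparison, from between 0.27 and 0.56 to between 0.08 and 0.24. For Dcn the standard error did not fall. The age difference of the 7 genes moved to between -0.44 (Ogn) and 0.08 (Aldh1a2), with -0.06 for Slc22a6, -0.13 for Slc13a4, -0.23 for Slc6a20a, -0.09 for Gjb2 and -0.09 for Fmod, and 0 of the 9 genes were called in edgeR, where 2.62% of all genes were in this fit. An unadjusted p under 0.05 was found for 2 of the 9 genes and for 17.8% of all genes. The 2 genes were Slc6a20a and Dcn. With the covariate, the age value of Dcn moved from 0.55 to 0.69 and that of Lum from -0.28 to 0.06.

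With the same covariate, all 7 treatment differences turned from higher to lower, between -0.33 (Fmod) and -0.05 (Ogn), with the lowest adjusted p of the 9 genes in edgeR at 0.391. In this fit 0.56% of all genes were called with treatment. In old anti-miR-mix against young libraries, Slc6a20a was called, with -0.41 (SE 0.08, adjusted p = 0.00153 in edgeR), the only call of the 9 genes in the fits made, where 6.71% of all genes were called in this fit. An unadjusted p under 0.05 was found for 6 of the 9 genes, all 6 of them lower, and for 20.3% of all genes. The covariate takes out any part of a group difference that the other meningeal genes share. A difference between groups in the amount of membrane on the tissue and a difference in these genes within the membrane cannot be told apart from such a fit without a measure of the dissection.

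**Figure D4:**
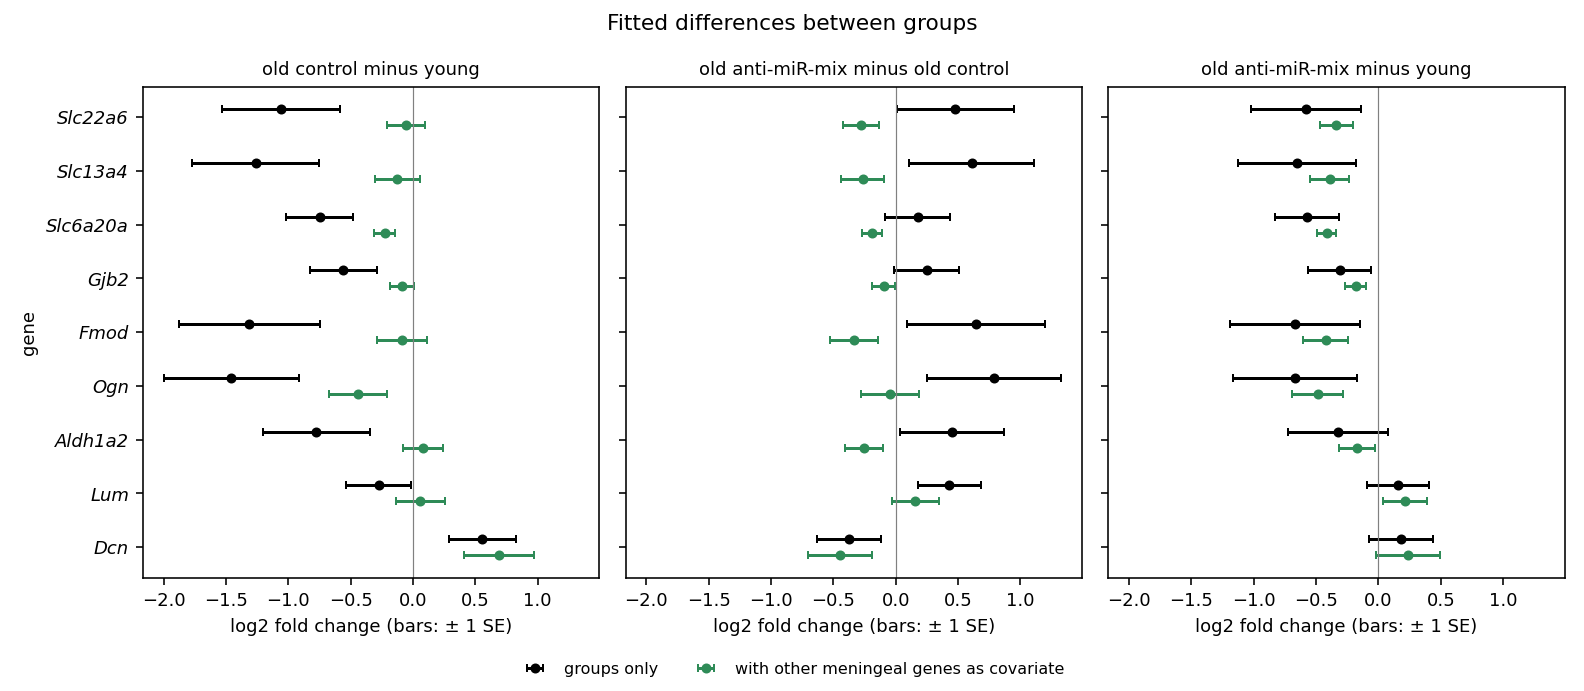
Log2 fold change of the 9 genes (rows) in 3 comparisons (panels) with bars of 1 SE, from edgeR with groups only (black) and with the other meningeal fibroblast genes as a covariate (green). Black values with age lie between -1.46 and 0.55 with wide bars. Green values of the 7 upper genes lie between -0.44 and 0.08, and in the treatment panel all 7 lie below 0.

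The relatives of the 9 genes were followed in the same fits. Of the 12 tested other members of the small leucine-rich proteoglycan family, 1 rose with age and 0 fell, where 2.67% of all genes were called. It was Prelp, which lies on the same chromosome as Fmod and whose product anchors basement membranes to connective tissue, at 0.31 on the log2 scale (SE 0.05, adjusted p = 0.00226 in edgeR) and 0.43 (SE 0.05, adjusted p = 2.2e-05) in old anti-miR-mix against young libraries. Prelp had r = 0.59 with the swings, and Bgn, biglycan, r = 0.82. Prelp thus differed with age in the direction opposite to that fitted for Fmod.

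Among 13 tested other organic anion and related transporters, 2 fell with age and 0 rose, where 2.67% of all genes were called. Slc13a3 had -0.65 (SE 0.17, adjusted p = 0.0429 in edgeR) and Abcg2, an efflux pump of the blood-brain barrier, -0.27 (SE 0.07, adjusted p = 0.0418). Slc13a3 was among the 10 genes most like the 9 in their swings (r = 0.93) and Abcg2 had r = 0.70. The part of the swings in these 2 age differences was not tested. Slco1a4 and Slco1c1, the most abundant of the list, had r = 0.31 and -0.37.

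Of 9 tested other gap junction genes, 1 fell with age and 0 rose (2.67% of all genes were called), namely Gjb6, connexin 30 of astrocytes, which neighbours Gjb2, with -0.26 (SE 0.07, adjusted p = 0.0468 in edgeR). In old anti-miR-mix against young libraries Gjb1 rose by 0.31 and Gjc1 fell by 0.34, where 6.2% of all genes were called. Of 17 tested other retinoic acid pathway genes, 0 were called with age, and Dhrs3, a reductase of retinaldehyde, was the only one called in old anti-miR-mix against young libraries (0.40, SE 0.09, adjusted p = 0.0114). Of the 174 tested genes of all lists, with the 9 genes counted in, 6 were called in edgeR with age and 51 had an unadjusted p under 0.05 (29.3%, against 18.1% of all genes). Between the old groups 0 were called and 21 had an unadjusted p under 0.05 (12.1%, against 10.5%), and in old anti-miR-mix against young libraries 12 were called and 34 had it (19.5%, against 19.6%). Of the 9 genes, which were picked with these values in view, 6 had an unadjusted p under 0.05 with age. The number was 0 between the old groups and 1 in old anti-miR-mix against young libraries.

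Of the 38 other meningeal fibroblast genes, 1 rose with age, Col6a3, a collagen VI chain (0.91, SE 0.23, adjusted p = 0.0384 in edgeR), and 1 fell, Gjb6, which is counted in both lists, where 2.67% of all genes were called. The median log2 fold change of the list was -0.24 with age and 0.22 with treatment, beside -0.78 and 0.45 for the 9 genes and 0.01 and 0.00 for all genes. In old anti-miR-mix against young libraries 2 genes of the list rose, Cyp1b1 (0.94, SE 0.21, adjusted p = 0.00741) and Igfbp2 (0.59, SE 0.16, adjusted p = 0.0268), and 0 fell, where 6.2% of all genes were called. The border macrophage list had median values of -0.20 with age and 0.28 with treatment, and its only call was Ms4a7 (1.25, SE 0.29, adjusted p = 0.0103) in old anti-miR-mix against young libraries.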

How the data were processed

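RNA of the CA1 tissue was sequenced by the authors as polyadenylated single-end libraries of 50 bases. Per the labels, reads were checked with FastQC 0.11.5, aligned to mm10 with STAR 2.5.2b and counted with featureCounts of Subread 1.5.1. The deposited files hold raw counts per Ensembl gene. The deposited log2 table equals log2(CPM + 1) less a gene-specific slope times a whole number from 1 to 4 per library, and was used only to read that number, whose meaning is not given in the sources used here. All 19 columns were assigned from the labels.

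Genes reaching 5 reads in 50% or more of libraries were tested with edgeR 4.0.16 (R 4.3.3), TMM scaling and a quasi-likelihood fit over all 3 groups, with a Benjamini-Hochberg threshold of 0.05. SE is the absolute log2 fold change over the square root of F. Log2 CPM used a prior count of 2. The script was tested on simulated data. DESeq2 1.42.0, other scalings and filters, a replicate block, processing group terms, merged replicates, a covariate of 38 other meningeal genes and leave-one-out fits were alternatives. Deviations of same-numbered libraries of different groups had r between -0.17 and 0.21 (median 0.05, over 0.1 in 6 of 18 pairs). Libraries with other numbers had r between -0.27 and 0.39 (median -0.01, over 0.1 in 15 of 102 pairs). These values do not settle whether mice were paired. As the labels pair no mice, no pairing was used.

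The 9 genes and all lists were chosen with earlier results of these data known. Named beside the 9 were the 3 most abundant genes of a list, up to 3 called genes of a list per comparison, and the 10 genes most like the 9. Symbols and coordinates came from GENCODE M21.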

Additional observations from a re-analysis of the deposited data

Results flagged for a closer look

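For each of the 9 genes and each group, the highest and the lowest library were set against the nearest other library, 27 groups of values in all. Fmod in old control replicate 2 had a log2 CPM of 0.90, the lowest of the 6 old control libraries. The next lowest was 2.23, a 2.51-fold distance in CPM, and the gap was 0.70 of the whole range of the group, above Dixon's 95% critical value for 6 samples. Chance alone gives such a gap in about 1 in 20 groups, and 1 of 27 groups had it. The same library was lowest or near lowest of its group for other genes that swing with Fmod (1.28 CPM for Ogn and 1.49 CPM for Slc22a6), and the cause was not tested.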

How the results depend on the processing

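Calls of the 9 genes stayed at 0 in every comparison under all alternatives, except that 1 gene, Slc6a20a, was called in old anti-miR-mix against young libraries with the covariate of other meningeal genes (-0.41, adjusted p = 0.00153). With this covariate, fitted values changed sign with age for Lum (0.059) and Aldh1a2 (0.080), and with treatment for Slc22a6 (-0.28), Slc13a4 (-0.27), Slc6a20a (-0.19), Gjb2 (-0.10), Fmod (-0.33), Ogn (-0.046) and Aldh1a2 (-0.25). Leaving out 1 library at a time gave -0.0097 to 0.26 for Slc6a20a with treatment and, in old anti-miR-mix against young libraries, -0.0081 to 0.43 for Dcn, -0.0054 to 0.43 for Lum and -0.69 to 0.050 for Aldh1a2. The sign changed without old anti-miR-mix replicate 6, young replicate 4, old anti-miR-mix replicate 4 and young replicate 6, in that order. Counts over all genes moved more. With age (514 genes) they were 323 without a filter, 772 with only the groups compared, 313 with old control replicates 5 and 6 as 1 library, 914 in DESeq2 and 212 to 691 with 1 library left out. With treatment (129 genes) they were 55 with only the groups compared, 249 with the replicate block, 9 with processing group as a factor, 33 with old control replicates 5 and 6 as 1 library, 267 in DESeq2 and 23 to 247 with 1 library left out. The replicate block gave 651 genes with age and 1192 in old anti-miR-mix against young libraries, and called 0 of the 9 genes. As the labels pair no mice, it was not used. Causes of these shifts were not tested. SE values of 0.25 to 0.56 for the 9 genes limit the precision.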

Other observations

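The genes most like Dcn in their remainders over the 19 libraries were sought after its values had been seen. They were Dlk1 (r = 0.95), Slc35f1 (0.90), Plxnc1 (0.90), Pgrmc1 (0.90) and Hap1 (0.90), none of which is in a list used here or among the 10 genes most like the 9. Dlk1 encodes a membrane protein related to Notch ligands and Plxnc1 a semaphorin receptor. These values are descriptions.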
